A study of Homo sapiens with 6 samples.

Results

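Ion channel genes were described in ARPE-19 cells, a human cell line derived from retinal pigment epithelium, after exposure to FAC. The genes were taken by symbol. They begin with KCN (potassium channels and their partners), CACNA, CACNB or CACNG (calcium channels), SCN or SCNN1 (sodium channels), CLCN (chloride channels), TRP, ASIC (acid-sensing channels), ANO (anoctamins), BEST (bestrophins) or P2RX (ATP-gated channels), and symbols that end in -AS and a digit were left out, though 2 opposite-strand transcripts with other names, KCNQ1OT1 and TRPC5OS, were kept. Of 14884 genes with a named probe, 24 met this rule: 4 acid-sensing channel genes, 7 anoctamin genes, 4 bestrophin genes, 7 symbols that begin with KCN, CACNA1C-IT3 and TRPC5OS. The same rule takes 230 symbols of the RefSeq gene table. Pore-forming subunits of the KCN, CACN, SCN, SCNN1, CLCN, TRP and P2RX families had no named probe and were not analysed here, so an account by ion is limited to sodium for the acid-sensing channels, chloride and phospholipid for the bestrophins and anoctamins, and potassium through auxiliary subunits alone. The acid-sensing family was singled out with its response in these arrays already known.

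In the FAC group, 3 cultures received 250 µM FAC for 2 days, and in the untreated group 3 cultures received vehicle for the same time. FAC is the usual abbreviation of ferric ammonium citrate, an iron salt, and the title of the series calls these cells iron-treated. All 6 cultures had been kept confluent for 4 weeks in 1% serum so that they would differentiate, and both groups spent the treatment without serum. The design text calls the 3 cultures of each group biological replicates, all of 1 cell line. Total RNA of each was read on 1 array, as log2 intensities. Array medians over all probes lay between 6.03 and 6.09, and array pairs correlated with Pearson's r between 0.991 and 0.995. Of 22 listed marker symbols of retinal pigment epithelium, where SILV is an older name of PMEL, 14 had a named probe. None of the 14 passed limma's test, and 3 (21.4%, beside 17.2% of all genes) had an unadjusted p under 0.05. The smallest p-values were those of the retinoid-binding protein gene RLBP1 (0.31 ± 0.08, adjusted p = 0.0843) and RGR, the gene of a retinal G protein-coupled receptor (0.32 ± 0.09, adjusted p = 0.117), both higher on every FAC array than on any untreated one, while the pigment cell regulator gene MITF was lower on every FAC array (-0.15 ± 0.06, adjusted p = 0.215). Untreated replicate 2 stood apart in the pigment enzyme genes TYR (6.88, against 7.97 and 7.86 in untreated replicates 1 and 3) and TYRP1 (9.48, against 10.45 and 10.28). Without that array ASIC1, ASIC2 and KCNIP1, described below, still passed and KCNIP4 did not (adjusted p = 0.0865). The KCNIP4 call was also lost without any other single array, and the ASIC2 call without any 1 FAC array. OTX2, a transcription factor gene, averaged 11.04 ± 0.06 with FAC and 11.10 ± 0.10 untreated, and the visual cycle enzyme gene RPE65 averaged 5.69 ± 0.08 with FAC and 5.67 ± 0.15 untreated (SD, n = 3 each). The table has no detection calls, so whether a dim gene such as RPE65 is expressed could not be judged.

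Ion channels are membrane proteins that let ions pass down their gradients when voltage, a ligand, calcium or acid opens them. In the retinal pigment epithelium, chloride and potassium channels drive fluid from the retina towards the choroid, and bestrophin 1 is a calcium-activated chloride channel of the basolateral membrane. Acid-sensing channels open when the outside of the cell turns acid and pass mainly sodium, and KChIP proteins bind calcium and set the surface level and gating of fast potassium channels of the Kv4 family.

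Of the 24 genes, 3 rose with FAC and 1 fell at an adjusted p under 0.05. ASIC1 rose 2.19-fold, KCNIP1 1.54-fold and ASIC2 1.45-fold, and KCNIP4 was 1.32-fold lower with FAC. Over all 14884 genes, 3.73% passed in either direction, 1.88% higher and 1.85% lower, against 16.7% of the 24. The 24 were chosen with results of these arrays known, so this share is a description of them. The median log2 fold change of the 24 genes was -0.03, beside -0.0041 over all genes, and the changes ran from -0.40 to 1.13. The other 20 genes did not pass. Because the RNA came from whole cultures, a change in the RNA of each cell and a change in the share of cells that hold it cannot be told apart.

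**Figure D1:**
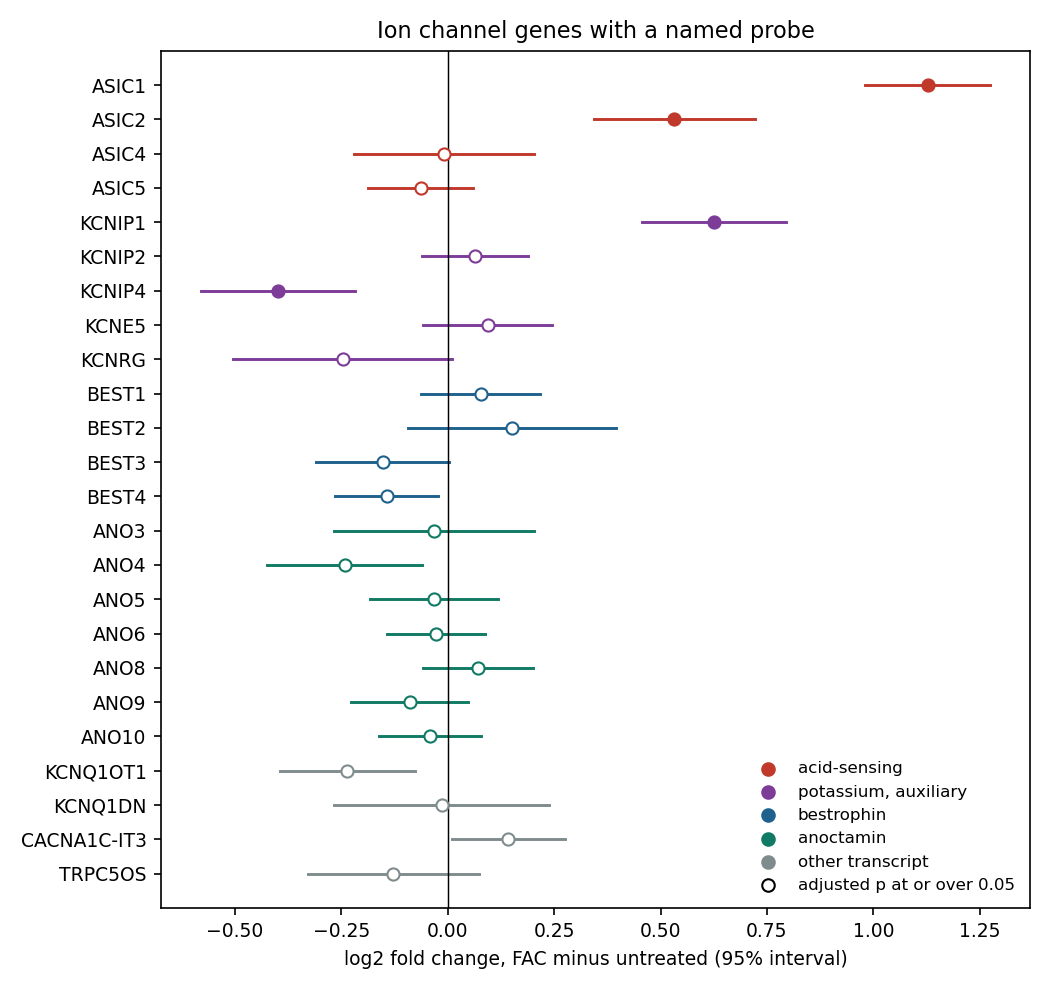
Log2 fold change, FAC minus untreated, of each of the 24 ion channel genes (x axis) by gene (y axis), with limma's unadjusted 95% interval as a line. Filled points passed an adjusted p of 0.05 and open points did not; ASIC1 at 1.13, KCNIP1 at 0.63 and ASIC2 at 0.53 lie to the right and KCNIP4 at -0.40 to the left, and the other 20 points lie between -0.25 and 0.15.

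Both ASIC1 and ASIC2 rose in the FAC-treated cells, and neither ASIC4 nor ASIC5 passed the test. ASIC1 encodes the main acid sensor of central neurons, and one of its variants also passes calcium. Its log2 intensity was 7.78, 7.75 and 7.81 with FAC, against 6.75, 6.56 and 6.65 untreated. All 3 FAC arrays lay about 1 log2 unit above all 3 untreated arrays, and the FAC values were the tighter group. The mean was 7.78 ± 0.03 with FAC and 6.65 ± 0.10 untreated (SD, n = 3 each), a log2 fold change of 1.13 ± 0.06 (SE, limma adjusted p = 0.000518, 95% interval 0.98 to 1.27). This was the 6th largest rise and the 3rd smallest p of the 14884 genes.

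ASIC2 encodes a subunit that joins ASIC1 in mixed channels and alters their acid sensitivity. Its log2 intensity was 7.42, 7.44 and 7.47 with FAC, against 6.73, 7.004 and 7.003 untreated. The groups did not overlap, and untreated replicate 1 lay apart below the other two untreated arrays. The change was 0.53 ± 0.08 (SE, limma adjusted p = 0.016), and without untreated replicate 1 it was 0.44 and still passed (adjusted p = 0.024). The call was lost without FAC replicate 1 (adjusted p = 0.0689), FAC replicate 2 (0.0556) or FAC replicate 3 (0.0613), and when all 53617 probes were tested (0.0705), while the change stayed between 0.44 and 0.58.

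ASIC4 encodes a family member that does not form acid-gated channels by itself. Its log2 intensity was 5.55, 5.29 and 5.52 with FAC, against 5.54, 5.53 and 5.32 untreated, so the groups overlapped fully. Its change was -0.0083 ± 0.09 (SE, limma adjusted p = 0.974), with a 95% interval from -0.22 to 0.20. ASIC5, the gene of the bile acid-sensitive member, measured 4.18, 4.20 and 4.10 with FAC, against 4.24, 4.20 and 4.23 untreated (-0.06 ± 0.05, adjusted p = 0.615). The intervals of ASIC4 and ASIC5 both lie below those of ASIC1 and ASIC2, and the difference in change between the genes was not tested. By mean intensity ASIC4 and ASIC5 stood in the lowest 33.3% of the genes, and without detection calls a small change there may go unseen.

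**Figure D2:**
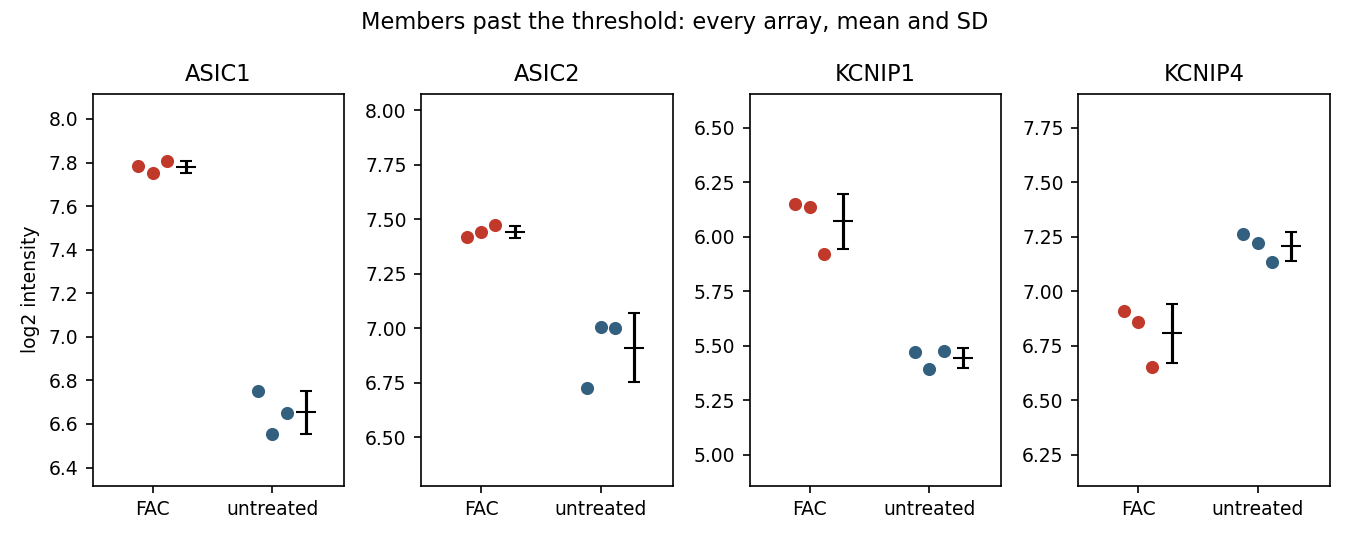
Log2 intensity (y axis) of the 4 genes that passed the test on each of the 6 arrays, with FAC on the left and untreated on the right of each panel. Points are arrays and black marks give mean ± SD (n = 3); every panel spans the same number of log2 units, and in all 4 genes the FAC points are clear of the untreated ones, above in ASIC1, ASIC2 and KCNIP1 and below in KCNIP4.

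Promoter windows of 250 bases before to 50 after the RefSeq start were at hand for 18 of the 24 genes (build GRCh38.p14), and those of the 4 genes that changed are shown so that genes that rose and the gene that fell can be compared. The ASIC1 window is chr12:50057920-50058219 on the plus strand and the ASIC2 window is chr17:33293246-33293545 on the minus strand. Both are printed 5′ to 3′ along their gene, with each GC box, GGGCGG on either strand, in capitals. A gene can have other starts, and which start the probe's transcript uses was not examined.
ASIC1: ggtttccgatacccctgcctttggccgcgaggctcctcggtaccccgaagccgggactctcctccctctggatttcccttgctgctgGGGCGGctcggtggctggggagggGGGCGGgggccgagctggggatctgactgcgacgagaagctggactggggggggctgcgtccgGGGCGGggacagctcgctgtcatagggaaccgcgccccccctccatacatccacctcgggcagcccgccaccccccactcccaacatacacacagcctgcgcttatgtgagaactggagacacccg
ASIC2: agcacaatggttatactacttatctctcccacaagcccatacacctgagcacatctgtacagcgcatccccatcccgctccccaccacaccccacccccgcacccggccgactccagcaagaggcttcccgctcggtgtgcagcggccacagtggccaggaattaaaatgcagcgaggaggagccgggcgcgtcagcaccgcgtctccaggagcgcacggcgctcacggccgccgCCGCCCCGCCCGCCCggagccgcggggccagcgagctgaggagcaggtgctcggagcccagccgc
The ASIC1 window holds 3 GC boxes, all on the printed strand and apart from each other. In the ASIC2 window 3 boxes lie on the other strand, run into each other and share bases. The windows have the same GC content of 68.7%, with 22 CpG dinucleotides in ASIC1 and 29 in ASIC2, beside a median of 14 over 27305 windows of the same length. The ASIC5 window has no GC box, 0 CpG and a GC content of 35.3%. At least 1 GC box was present in 8 of the 18 windows and in 44.6% of the 27305.

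The potassium group holds no pore, but 5 genes whose proteins bind or regulate potassium channels, of which KCNIP1 rose and KCNIP4 fell. KCNIP1 encodes KChIP1, a calcium-binding partner of Kv4 channels. Its log2 intensity was 6.15, 6.14 and 5.92 with FAC, against 5.47, 5.39 and 5.47 untreated. The lowest FAC array, replicate 3, was still above every untreated array. The mean was 6.07 ± 0.13 with FAC and 5.44 ± 0.05 untreated (SD, n = 3 each), a change of 0.63 ± 0.07 (SE, limma adjusted p = 0.00665). By mean intensity KCNIP1 is among the dimmest 33.3% of tested genes, and there are no detection calls. In the RefSeq table KCNMB1, the gene of a subunit of calcium-activated potassium channels, overlaps KCNIP1, and KCNMB1 has no named probe to set beside it.

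KCNIP4 encodes KChIP4, a partner of the same Kv4 channels. Its log2 intensity was 6.91, 6.86 and 6.65 with FAC, against 7.26, 7.22 and 7.13 untreated. All FAC values lay below all untreated ones, and FAC replicate 3 was the lowest, as it was among the FAC values of KCNIP1. KCNIP4 averaged 6.81 ± 0.14 with FAC and 7.21 ± 0.07 untreated (SD, n = 3 each), a change of -0.40 ± 0.08 (SE, limma adjusted p = 0.0354). This call was lost without any 1 of the 6 arrays (adjusted p between 0.0766 and 0.108), with the replicate block (0.0514) and when every probe was tested (0.128), with changes between -0.45 and -0.32. PACRGL, which overlaps KCNIP4 in the RefSeq table, averaged 7.70 with FAC and 7.81 untreated (-0.12 ± 0.05, adjusted p = 0.311).

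The windows of both genes are shown beside those of the acid-sensing pair, marked in the same way. That of KCNIP1 is chr5:170353237-170353536 on the plus strand and that of KCNIP4 is chr4:21948723-21949022 on the minus strand.
KCNIP1: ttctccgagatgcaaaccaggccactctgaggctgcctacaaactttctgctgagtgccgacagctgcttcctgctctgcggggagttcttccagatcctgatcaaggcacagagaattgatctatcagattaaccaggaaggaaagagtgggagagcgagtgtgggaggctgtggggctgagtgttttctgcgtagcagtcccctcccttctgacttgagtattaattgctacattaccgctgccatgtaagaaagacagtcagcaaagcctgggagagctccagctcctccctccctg
KCNIP4: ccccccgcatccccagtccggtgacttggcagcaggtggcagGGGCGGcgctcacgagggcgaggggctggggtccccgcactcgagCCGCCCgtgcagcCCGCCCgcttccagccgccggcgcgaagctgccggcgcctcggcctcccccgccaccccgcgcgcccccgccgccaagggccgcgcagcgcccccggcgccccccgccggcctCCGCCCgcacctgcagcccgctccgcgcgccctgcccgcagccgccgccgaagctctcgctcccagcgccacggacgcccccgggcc
No GC box was found in the KCNIP1 window, which has 6 CpG and a GC content of 53%, while the KCNIP4 window holds 4 boxes, 47 CpG and a GC content of 83.3%. Of the 3 genes that rose, 2 have boxes in their window and KCNIP1 has none, and the gene that fell has the most of the 4. Searched on both strands and overlapping the boxes or each other where they may, the TATA box TATAAA, the E-box CACGTG, the hypoxia response core ACGTG and the cAMP response motif TGACGTCA had no match in these 4 windows. Of the 27305 windows, 3264 hold the TATA box, 7.43% the E-box, 21.6% the hypoxia response core and 1.98% the cAMP response motif. The antioxidant response core TGACNNNGC was found once, in the KCNIP4 window, and in 13.6% of all windows.

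KCNIP2, which encodes the KChIP most abundant in heart muscle, measured 6.75, 6.85 and 6.76 with FAC, against 6.73, 6.71 and 6.72 untreated. The groups were just clear of each other, but the change of 0.06 ± 0.05 did not pass (SE, limma adjusted p = 0.612), and its second probe gave 0.07. KCNE5, the gene of a small auxiliary subunit that dampens KCNQ1 currents, changed by 0.09 ± 0.07 (adjusted p = 0.534) with overlapping groups. KCNRG, whose protein interferes with the assembly of voltage-gated potassium channels, measured 6.70, 6.65 and 6.34 with FAC, against 6.65, 6.95 and 6.84 untreated (-0.25 ± 0.11, adjusted p = 0.311). The gene overlaps TRIM13 in the RefSeq table, which averaged 8.23 with FAC and 8.40 untreated (-0.17 ± 0.06, adjusted p = 0.214).

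None of the 4 bestrophin genes passed limma's test, and 1 (25%, beside 17.2% of all genes) had an unadjusted p under 0.05. BEST1, the bestrophin of the retinal pigment epithelium, measured 5.87, 5.99 and 6.04 with FAC, against 5.89, 5.91 and 5.86 untreated. One FAC array lay within the untreated values and the other two above them. The change was 0.08 ± 0.06 (SE, limma adjusted p = 0.584), and its 95% interval from -0.06 to 0.22 ends below the 0.34 at which that of ASIC2 begins. The difference in change between BEST1 and ASIC2 was not tested. BEST1 overlaps the ferritin heavy chain gene FTH1 in the RefSeq table, and FTH1 has no named probe. BEST2, a bestrophin of the ciliary body and colon, gave 0.15 ± 0.11 (adjusted p = 0.537) and was lowest on untreated replicate 2, at 5.995. BEST4, which marks a subset of intestinal epithelial cells, measured 5.91, 5.87 and 5.89 with FAC, against 6.07, 6.06 and 5.98 untreated, without overlap (-0.14 ± 0.05, adjusted p = 0.211). BEST3 was also lower on every FAC array than on any untreated one (-0.15 ± 0.07, adjusted p = 0.302).

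None of the 7 anoctamin genes passed limma's test either, and 1 (14.3%, beside 17.2% of all genes) had an unadjusted p under 0.05. ANO6, which encodes a calcium-activated phospholipid scramblase that also conducts ions, was bright on all arrays, at 12.81, 12.76 and 12.76 with FAC, against 12.79, 12.81 and 12.82 untreated. The change was -0.03 ± 0.05 (SE, limma adjusted p = 0.833), with a 95% interval from -0.14 to 0.09. ANO4 measured 4.40, 4.49 and 4.57 with FAC, against 4.86, 4.72 and 4.61 untreated, again without overlap (-0.24 ± 0.08, adjusted p = 0.164), and is among the dimmest 33.3% of genes. ANO10, mutated in a recessive ataxia, gave -0.04 ± 0.05, and ANO5, mutated in muscular dystrophy, gave -0.03 ± 0.07. ANO8, whose protein tethers the endoplasmic reticulum to the plasma membrane, gave 0.07 ± 0.06. For ANO3, mutated in a dystonia, and for ANO9 the changes were -0.03 ± 0.10 and -0.09 ± 0.06. The adjusted p of these 5 genes ran from 0.503 for ANO9 to 0.909 for ANO3.

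The remaining 4 symbols carry the name of a channel gene but encode no channel subunit, and none passed limma's test. Of these 4, 2 (50%, beside 17.2% of all genes) had an unadjusted p under 0.05. KCNQ1OT1, a long RNA transcribed from within KCNQ1 that silences neighbouring imprinted genes, measured 7.04, 7.11 and 6.97 with FAC, against 7.17, 7.33 and 7.34 untreated. Every FAC array was below every untreated one (-0.24 ± 0.07, SE, limma adjusted p = 0.122). CACNA1C-IT3, a transcript from within the calcium channel gene CACNA1C, was dim and lay higher on every FAC array than on any untreated one (0.14 ± 0.06, adjusted p = 0.26). KCNQ1DN (-0.01 ± 0.11, adjusted p = 0.961) and TRPC5OS (-0.13 ± 0.09, adjusted p = 0.517) had overlapping groups. Their host or neighbouring channel genes KCNQ1, CACNA1C and TRPC5 were not analysed here.

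**Figure D3:**
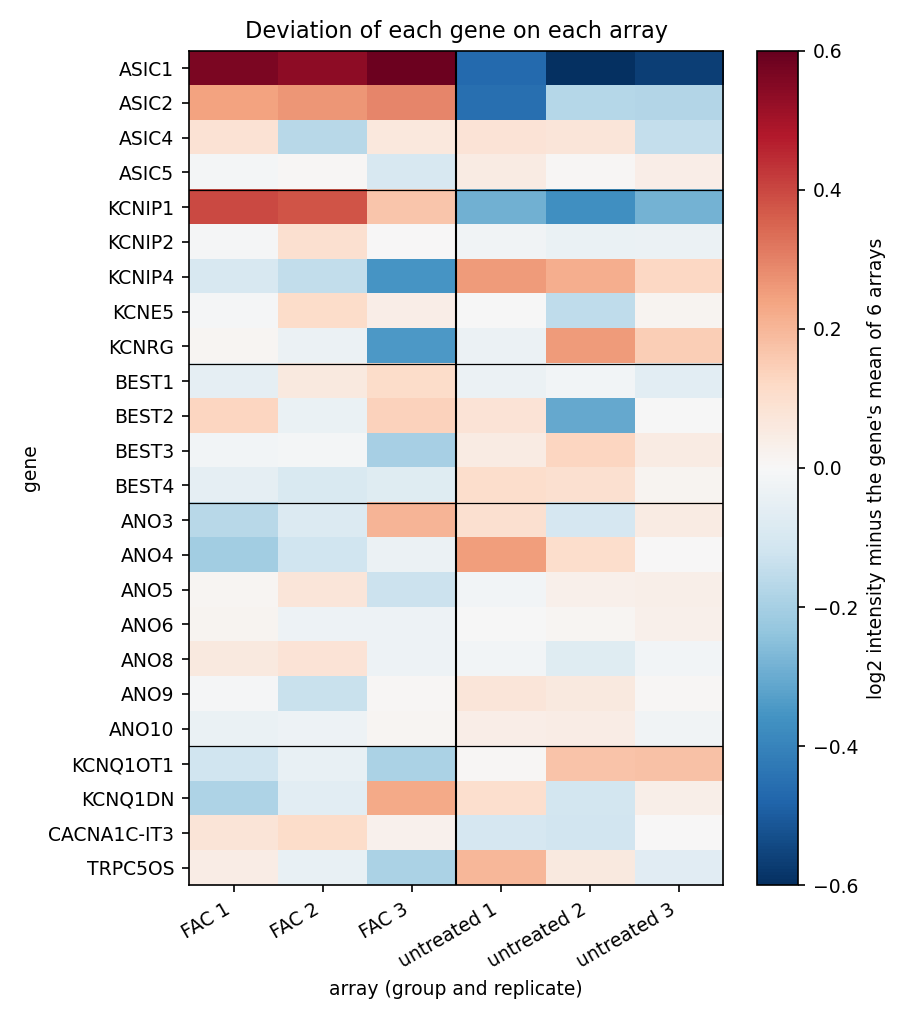
Deviation of each of the 24 genes (rows, in families divided by lines) from its own mean of 6 arrays, in log2 units by colour, on the 3 FAC arrays and then the 3 untreated arrays (columns). ASIC1, ASIC2 and KCNIP1 are red on every FAC array and blue on every untreated one, and KCNIP4 has the opposite pattern.

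Across the 24 genes, the 3 values of 1 group were clear of the 3 of the other in 10 genes or 41.7%, beside 23.4% of all 14884 genes. FAC was above in ASIC1, ASIC2, KCNIP1, KCNIP2 and CACNA1C-IT3, and below in KCNIP4, BEST3, BEST4, ANO4 and KCNQ1OT1. Of the 15 genes of pore-forming families 2 rose, ASIC1 and ASIC2, and 0 fell, or 13.3% beside 3.73% of all genes. Their median change was -0.03, beside -0.0041 over all genes. At an unadjusted p under 0.05, where 17.2% of all genes lie, 4 of the 24 were higher and 4 lower with FAC. By mean intensity 11 of the 24 lay among the dimmest 33.3% of tested genes.

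**Figure D4:**
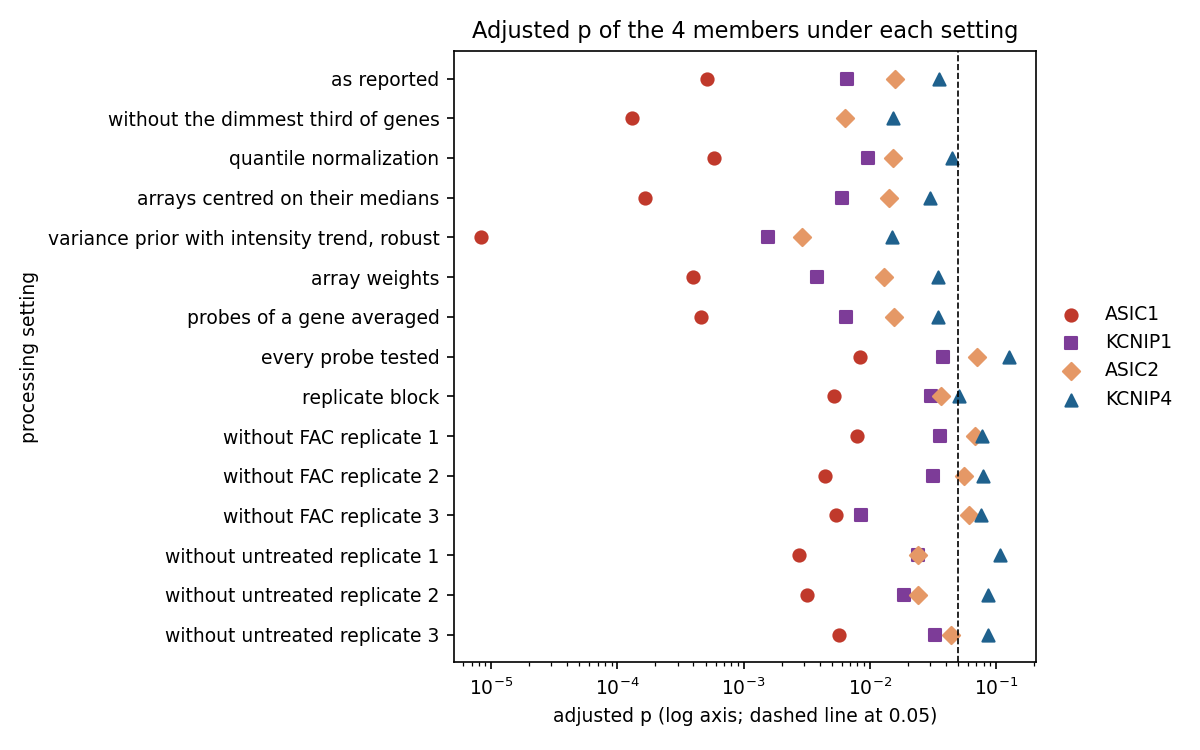
Adjusted p (x axis, log scale) of ASIC1, KCNIP1, ASIC2 and KCNIP4 as reported and under each alternative setting (y axis), with the threshold of 0.05 as a dashed line. ASIC1 lies left of the line in all 14 alternatives and KCNIP1 in the 13 that hold it, since it is among the genes left out as dimmest, while ASIC2 lies right of the line in 4 and KCNIP4 in 8.

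Because acid-sensing channels and KChIPs are best known from neurons, markers of neurons, glia and photoreceptors were read beside them. Of 12 such markers 7 had a named probe, and none passed limma's test. At an unadjusted p under 0.05 lay 3 of the 7, or 42.9% beside 17.2% of all genes. Their mean log2 intensity lay between 6.82 and 6.88 on the FAC arrays and between 6.79 and 6.83 on the untreated ones. The presynaptic calcium sensor gene SYT1 (-0.21 ± 0.07, adjusted p = 0.174) was lower with FAC on every array, and the photoreceptor gene SAG (0.27 ± 0.08, adjusted p = 0.118) and the astrocyte gene GFAP (0.23 ± 0.08, adjusted p = 0.198) were higher. Of 8 markers of blood and endothelium 4 had a named probe. Their mean log2 intensity lay between 7.55 and 7.71 on the FAC arrays and between 7.62 and 7.74 on the untreated ones. Of these 4, 1 passed limma's test (25%, beside 3.73% of all genes), and 1 (25%, beside 17.2%) had an unadjusted p under 0.05. It was CSF1R, the receptor gene of a macrophage growth factor, which fell (-0.37 ± 0.07, adjusted p = 0.0365), a call kept in 6 of 14 alternatives. The other 3 did not pass, with changes of -0.12 for CD68, 0.16 for PECAM1 and 0.0046 for VWF. The part of these markers in the rise of the ASIC genes was not tested.

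Other channels, chosen as a list outside the symbol rule, gave 1 rise and 1 fall among 40 measured genes of 52, or 5% against 3.73% of all genes. MCOLN3, which encodes a calcium-permeable channel of endosomes and lysosomes, measured 7.77, 7.82 and 7.73 with FAC, against 7.44, 7.50 and 7.49 untreated (0.30 ± 0.05, SE, limma adjusted p = 0.0257). TMC7, of the transmembrane channel-like family, measured 7.88, 7.88 and 7.77 with FAC, against 8.08, 8.15 and 8.13 untreated (-0.28 ± 0.06, adjusted p = 0.0394). Neither passed without any 1 of the 6 arrays, with the replicate block or with every probe tested. The other 38 did not pass, among them ORAI1, the pore of store-operated calcium entry (0.06 ± 0.07, adjusted p = 0.72), and the mechanically gated PIEZO1 (-0.00073 ± 0.06, adjusted p = 0.995). The list's median change was 0.03.

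Of 40 listed genes of calcium and proton signalling downstream of channels, 22 were measured and none passed limma's test, with 2 higher and 5 lower at an unadjusted p under 0.05, together 31.8% beside 17.2% of all genes. STOM, which encodes stomatin, a membrane protein known in mouse to modulate acid-sensing channels, came closest. It measured 9.75, 9.72 and 9.66 with FAC, against 9.33, 9.46 and 9.49 untreated, with all FAC arrays higher (0.28 ± 0.06, SE, adjusted p = 0.0518). It passed in 4 of 14 alternatives. RCAN2, an inhibitor of calcineurin, averaged 9.21 ± 0.04 with FAC and 9.51 ± 0.16 untreated (-0.30 ± 0.08, adjusted p = 0.11) and passed in 2. Of 42 listed pumps, exchangers and cotransporters, 3 regulators of the FXYD family were measured and none passed limma's test. Of these 3, 1 (33.3%, beside 17.2% of all genes) had an unadjusted p under 0.05. The smallest p-values were those of FXYD5 (-0.22 ± 0.07, adjusted p = 0.17) and FXYD3 (0.19 ± 0.11, adjusted p = 0.425). None of 46 listed ligand-gated receptor genes had a named probe, so they were not analysed here.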

How the data were processed

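The deposited table holds 53617 probes on 6 arrays as log2 intensities, a unit read from its range of 2.41 to 14.22; the submitters' processing notes list Partek 6.6 and RMA and give no role or order, and the build is not given in the sources used here. The deposited table has no detection calls. The platform annotation pairs 16098 probes with 1 symbol each, and 37519 probes are unnamed here. The probe with the highest mean was taken for each of 14884 genes. The 3 FAC arrays were set against the 3 untreated ones in limma 3.58.1 (R 4.3.3; lmFit, eBayes, two-sided, no covariate), and p-values of all genes were adjusted by Benjamini and Hochberg's method, with 0.05 as the threshold. The fit was run on simulated data, with independent noise drawn from the variances it had fitted and with shifts larger than that of KCNIP4. This checked the code and is no test of the calls reported here.

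The genes and lists were chosen with earlier results of these data known. Named are all 24 ion channel genes and, from each other list, the genes past the threshold or, with none, the 2 with the smallest p; ORAI1, PIEZO1, OTX2, RPE65, MITF, TYR, TYRP1, GFAP, KCNJ2-AS1, KCNQ5-AS1, CACNA1G-AS1 and overlapping neighbours were added after their values were seen. Promoter windows and gene overlaps came from RefSeq (GRCh38.p14), with 1 window for each symbol. The alternatives were a filter on dim genes, quantile normalization, median centring, an intensity trend with robust variance, array weights, averaged probes, all probes, the replicate block, each array left out, and pore-forming genes alone. The number of arrays limits the precision.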

Additional observations from a re-analysis of the deposited data

How the results depend on the processing

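The count of 3 ion channel genes higher with FAC lay between 2 and 3 in every alternative. It was 2 without the dimmest 33.3% of genes, where KCNIP1 was not tested, when every probe was tested, with pore-forming genes alone and without any 1 FAC array. The count of 1 lower became 0 with every probe tested and with pore-forming genes alone, and 0 without any 1 array. The count over all genes, 555, became 840 without the dimmest 33.3%, 1026 with an intensity trend and robust variance, and 111 when all 53617 probes were tested, of which 254 passed, and lay between 147 and 447 without 1 array. The median of the 24 genes was -0.0448 with arrays centred on their medians, where that of all genes was -0.0193. Without 1 array the median of the 24 lay between -0.0381 and -0.0088, and that of all genes between -0.0083 and -0.00081. Genes whose sign turned without 1 array had not passed: their changes then lay between -0.0825 and 0.072 for ASIC4, -0.14 and 0.044 for ANO3, -0.0756 and 0.0254 for ANO5, and -0.132 and 0.0751 for KCNQ1DN. The cause was not tested. Leaving out an array leaves fewer samples.

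With the replicate block, 184 genes passed, and 3 ion channel genes were higher and 0 lower. Same-numbered arrays deviated from their group means with correlations of -0.02, -0.03 and -0.15. For arrays of unlike number the correlations ran from -0.096 to 0.126. With 3 arrays in each group these values cannot show whether same-numbered cultures were handled together. Without detection calls, responses of dim genes can be missed.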

Other observations

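The 6 antisense RNAs of channel loci that the symbol rule leaves out also had named probes. None passed limma's test or had an unadjusted p under 0.05, beside 3.73% and 17.2% of all genes. Changes of the 6 RNAs ran from -0.18 for KCNJ2-AS1 (adjusted p = 0.291) to 0.04 for KCNQ5-AS1 (adjusted p = 0.826). KCNJ2-AS1 lies opposite the gene of an inwardly rectifying potassium channel, and its unadjusted p in limma's test was 0.0502. By mean intensity 4 of the 6 lay among the dimmest 33.3% of tested genes. With 6 RNAs and these shares, passing none says little about antisense RNAs. CACNA1G-AS1 averaged 7.26 ± 0.03 with FAC and 7.29 ± 0.31 untreated (SD, n = 3 each), with untreated replicate 1 highest at 7.58 and untreated replicate 2 lowest at 6.96.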
